A study of Mus musculus with 16 samples.

Results

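The 10 genes described here encode enzymes and a carrier that act on ceramide after it is made: Ugcg, B4galt5, B4galt6, Gba2, Ugt8a, Fa2h, Gal3st1, Galc, Cerk and Cert1. They were chosen by name for a step in the glycosylation, hydroxylation, phosphorylation or transfer of ceramide, and each symbol was matched to 1 Ensembl identifier. They are 10 of the 56980 gene identifiers in the count table, and all 10 passed the filter on low counts, which kept 17972 genes.

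Ceramide is the hub of sphingolipid metabolism. Glucose added by Ugcg opens the path to lactosylceramide, the globo-series glycolipids and the gangliosides, while galactose added by Ugt8a opens a short path to galactosylceramide and its sulfated form, sulfatide. Sulfatide is an acidic glycolipid abundant in myelin and in the distal parts of the kidney tubule, and globo-series glycolipids and hydroxylated sphingolipids are also known from kidney. Cert1 carries ceramide from the endoplasmic reticulum to the Golgi for sphingomyelin synthesis, and Cerk phosphorylates ceramide to ceramide-1-phosphate.

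RNA-seq was made from the kidney cortex of male C57Bl/6J mice, in 4 groups of 4 samples: iGKO IRI, fl/fl IRI, iGKO sham and fl/fl sham. The iGKO mice were Degs1fl/fl mice that also carried Rosa26-CreERT2, a Cre recombinase that is active throughout the body once tamoxifen is given, and so carry an induced global deletion of Degs1, the desaturase of the last step of ceramide synthesis. The fl/fl mice were Degs1fl/fl littermates without that deletion. All 4 groups carried the floxed gene and received 3 mg tamoxifen on 5 days at 9 weeks of age, and all were operated at 12 weeks. IRI (bilateral ischaemia-reperfusion injury) mice had both renal pedicles clamped for 28 min and then reperfused, with tissue taken at up to 24 h, and sham mice had the same operation without clamping. This Cre is not restricted to a cell type, so a change in cortex cannot be assigned to the tubule. A library is named by its group and replicate number, as in iGKO sham 4. The labels give 1 batch for all samples and do not say more on how replicates were kept apart than that each is a separate sample, so p-values measure the spread between these samples.

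Total counts ran from 12704273 to 18816343 per library. Levels are in CPM, read counts scaled by TMM to a common library size and composition. A gene is called where edgeR's quasi-likelihood test gives a Benjamini-Hochberg adjusted p, taken over all 17972 genes, below 0.05. Degs1 averaged 54.5 ± 6.81 CPM in iGKO IRI and 113 ± 18.2 CPM in fl/fl IRI (SD, n = 4 each), and 57.0 ± 14.3 CPM in iGKO sham against 100.3 ± 12.3 CPM in fl/fl sham, with no overlap in either pair. The counts cover the whole gene, so reads from transcripts that lack the deleted part can still be counted. In bulk tissue, fewer cells of a type and less RNA per cell cannot be told apart. Proximal tubule markers (10 of 10 matched) summed to 12058 to 15812 CPM in iGKO IRI, 3584 to 14563 CPM in fl/fl IRI, 16691 to 19859 CPM in iGKO sham and 18275 to 20279 CPM in fl/fl sham. Tubular injury markers (6 of 6: Havcr1, Lcn2, Krt20, Sox9, Spp1 and Clu) summed to 1411 to 3139 CPM in iGKO IRI, 3531 to 14826 CPM in fl/fl IRI, 970.0 to 2244 CPM in iGKO sham and 677 to 1413 CPM in fl/fl sham. 3 libraries stood apart. The library fl/fl IRI 1 had the lowest injury sum of its group (3531 CPM, against 9135 to 14826 CPM in fl/fl IRI 2, 3 and 4), and iGKO sham 4 lay at one end of the second principal component and had the lowest share of mitochondrial reads, 0.443%. Values without the pair fl/fl IRI 1 and iGKO sham 4 are given beside the results whose call they change and beside the interaction, and changes of sign stand with the limits at the end. These 2 were left out together because earlier results on these data had described them as standing apart. The library iGKO IRI 2 had fibroblast and mural markers (5 of 5) at 4131 CPM, against 621 to 1254 CPM in the other iGKO IRI libraries, 321 to 839.9 CPM in fl/fl IRI, 390.2 to 849 CPM in iGKO sham and 443 to 645 CPM in fl/fl sham. Most of that 4131 CPM was 1 gene, Col1a1, at 3598 CPM. Pdgfrb, Dcn and Acta2 reached at most 184, 212 and 140 CPM in iGKO IRI.

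In short, 2 of the 10 genes, Cerk and B4galt6, rose after IRI in fl/fl mice, and Ugcg averaged higher in fl/fl IRI than in fl/fl sham without passing the threshold. Ugt8a and Gal3st1 had lower values in 3 of the 4 fl/fl IRI libraries. Of all genes tested, 15.5% were called between IRI and sham in fl/fl mice (8.46% higher and 7.01% lower), so 2 of 10 is near the background. The median log2 fold change of the 10 genes was -0.03, against 0.01 over all genes. Between IRI and sham in iGKO mice, 0 of the 10 were called, as were 0% of all genes, with 1145 genes at an unadjusted p below 0.05 in edgeR and 43 genes called by DESeq2. Their median log2 fold change was -0.06, against -0.02 over all genes.

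**Figure D1:**
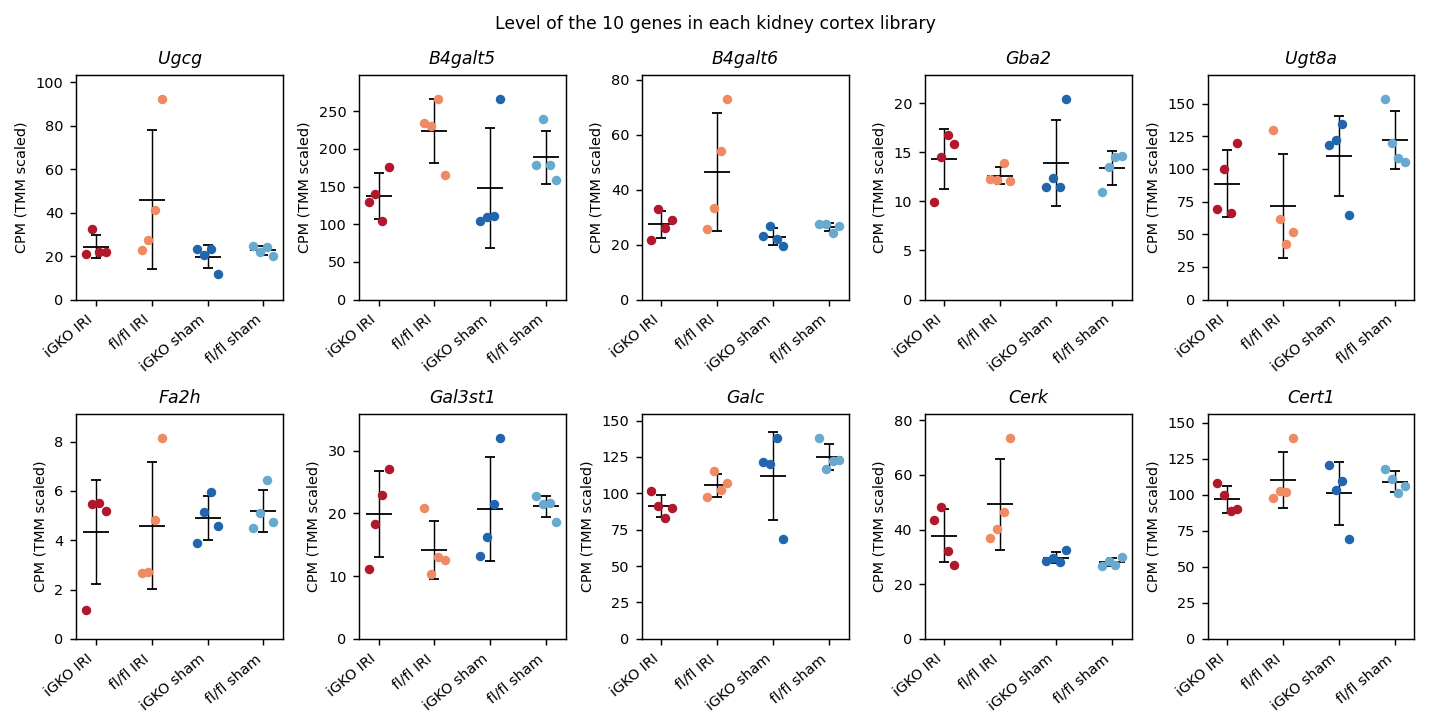
Level of each of the 10 genes in CPM (TMM scaled, linear axis from 0) in the 16 libraries, 1 panel a gene; points are libraries and bars the group mean ± SD (n = 4), with groups from left to right iGKO IRI, fl/fl IRI, iGKO sham and fl/fl sham. The spread of Ugcg, B4galt6 and Cerk is widest in fl/fl IRI, where Ugcg runs from 22.8 to 92.5 CPM, and B4galt5 has 1 iGKO sham library at 267 CPM.

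Compared per length of exons, the 10 genes differed widely in level. In fl/fl sham, B4galt5 stood highest at 44.8 ± 8.41 CPM per kb, followed by Galc at 32.6 ± 2.38, Ugt8a at 29.3 ± 5.34 and Cert1 at 20.2 ± 1.35 CPM per kb (SD, n = 4 each). Galc and Ugt8a did not differ beyond their spread. Gal3st1 followed at 10.3 ± 0.841 CPM per kb. Cerk at 6.14 ± 0.328 and Ugcg at 5.65 ± 0.531 CPM per kb overlapped in their library values, and B4galt6 at 4.55 ± 0.248 and Gba2 at 3.79 ± 0.478 CPM per kb came next. Fa2h was lowest at 2.09 ± 0.344 CPM per kb. Ugt8a thus had a higher level per length than Ugcg in uninjured cortex.

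The promoters of Ugcg and Ugt8a, whose enzymes compete for ceramide, of B4galt5, the most abundant of the set per length, and of Cerk, the gene with the lowest adjusted p, are shown from RefSeq on GRCm38.p6. Each window runs from 250 bases before to 50 bases after the start of the gene, 5′ to 3′ on the gene's strand. Capitals mark GC boxes, GGGCGG on either strand, a motif that Sp1-family factors bind. Ugcg is at chr4:59189300-59189599 on the plus strand, Ugt8a at chr3:125938603-125938902, B4galt5 at chr2:167349129-167349428 and Cerk at chr15:86186092-86186391, all 3 on the minus strand.
Ugcg: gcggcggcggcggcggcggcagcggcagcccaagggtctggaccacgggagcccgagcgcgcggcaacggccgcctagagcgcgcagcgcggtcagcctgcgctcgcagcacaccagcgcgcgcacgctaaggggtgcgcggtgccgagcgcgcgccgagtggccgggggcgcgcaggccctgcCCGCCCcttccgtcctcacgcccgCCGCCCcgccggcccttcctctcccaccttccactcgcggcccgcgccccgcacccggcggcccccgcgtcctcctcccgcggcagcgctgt
Ugt8a: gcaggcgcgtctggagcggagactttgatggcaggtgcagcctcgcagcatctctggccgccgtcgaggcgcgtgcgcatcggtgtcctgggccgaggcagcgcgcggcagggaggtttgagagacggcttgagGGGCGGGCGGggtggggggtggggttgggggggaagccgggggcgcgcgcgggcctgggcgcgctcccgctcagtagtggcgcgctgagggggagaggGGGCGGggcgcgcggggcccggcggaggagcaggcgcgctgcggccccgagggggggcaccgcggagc
B4galt5: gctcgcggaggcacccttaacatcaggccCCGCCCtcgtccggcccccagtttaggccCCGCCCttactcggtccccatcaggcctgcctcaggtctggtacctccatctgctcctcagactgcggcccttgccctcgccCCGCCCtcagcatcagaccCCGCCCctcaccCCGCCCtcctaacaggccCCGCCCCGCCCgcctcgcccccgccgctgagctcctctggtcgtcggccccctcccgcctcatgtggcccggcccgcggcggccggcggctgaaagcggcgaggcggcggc
Cerk: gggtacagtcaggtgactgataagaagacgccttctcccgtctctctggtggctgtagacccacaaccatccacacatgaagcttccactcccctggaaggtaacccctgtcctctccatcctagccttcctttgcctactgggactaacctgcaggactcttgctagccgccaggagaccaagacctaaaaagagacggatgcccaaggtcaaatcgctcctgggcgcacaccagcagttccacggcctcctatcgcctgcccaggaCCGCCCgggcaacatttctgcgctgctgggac
G and C made up 81.3% of the window in Ugcg, 78.3% in Ugt8a, 75% in B4galt5 and 58.3% in Cerk. B4galt5 held 7 GC boxes, of which the last pair overlap, Ugt8a held 3, of which 1 pair overlap, Ugcg held 2 and Cerk held 1, which lies after the start. Of the genes whose windows are not shown, Gba2, Galc and Cert1 held 1 GC box each and Gal3st1 held none. A GC box is present in 35.7% of the 32851 RefSeq windows of the same length. RefSeq windows were matched for 8 of the 10 genes. None was found for Fa2h. B4galt6 was not looked up, since windows on its chromosome, 18, were left out for the 10 genes. Other motifs were searched in the windows of the 8 genes on both strands. The CCAAT box (CCAAT, 37.4% of all windows) was found in each of the 3 start-site windows of Gal3st1, and the hypoxia response motif (ACGTG, 19.6%) was found in Gba2. Windows 1 and 2 of Gal3st1 overlap, and their CCAAT match is the same site. AP-1 (TGANTCA, 7.81%) and the TATA box (TATAAA, 13.6%) matched in no window of the 8 genes. A match is a description of the letters in a window, and nothing was measured here of a factor's binding.

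The first question the design asks is how these genes respond to IRI in each genotype. On the glucosylceramide side, Ugcg, glucosylceramide synthase, had 21.2, 32.4, 21.9 and 21.8 CPM in iGKO IRI 1 to 4, 22.8, 27.6, 41.1 and 92.5 CPM in fl/fl IRI, 23.5, 20.5, 23.1 and 11.9 CPM in iGKO sham, and 24.7, 21.8, 24.1 and 20.1 CPM in fl/fl sham. It was high in fl/fl IRI 3 and 4, and the groups overlapped. The log2 fold change of IRI against sham was 1.02 ± 0.34 in fl/fl mice (SE, adjusted p = 0.0543 in edgeR), just short of a call, and 0.30 ± 0.34 in iGKO mice (adjusted p = 0.984). Whether Ugcg was called in fl/fl mice depended on single libraries and on the method. Without fl/fl IRI 4 the log2 fold change was 0.43 (adjusted p = 0.284), without fl/fl IRI 1 it was 1.25 (adjusted p = 0.0107), and without both fl/fl IRI 1 and iGKO sham 4 it was 1.25 (adjusted p = 0.00533). Calls rose for genes in general in these last settings. Of all genes, 4335 of 18392 were called without fl/fl IRI 1 and 5508 of 18243 without both, against 2779 of 17972 with all libraries. Without fl/fl IRI 2 alone or iGKO sham 4 alone Ugcg was also called (adjusted p = 0.0362 and 0.0377), as it was with no filter on low counts (0.0416) and by DESeq2 (0.0240).

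B4galt6, a lactosylceramide synthase that adds galactose to glucosylceramide, rose after IRI in fl/fl mice. Its levels were 21.5, 33.0, 26.0 and 28.8 CPM in iGKO IRI, 25.7, 33.2, 54.2 and 73.1 CPM in fl/fl IRI, 23.2, 26.8, 22.2 and 19.5 CPM in iGKO sham, and 27.3, 27.4, 24.3 and 26.6 CPM in fl/fl sham. The same 2 libraries, fl/fl IRI 3 and 4, were high, while fl/fl IRI 1 lay within the sham range. IRI against sham gave a log2 fold change of 0.82 ± 0.25 in fl/fl mice (SE, adjusted p = 0.0357 in edgeR) and 0.26 ± 0.25 in iGKO mice (adjusted p = 0.979). The call in fl/fl mice was lost without any 1 of the fl/fl sham libraries (adjusted p from 0.0651 to 0.0944), without fl/fl IRI 3 (adjusted p = 0.0986), and without fl/fl IRI 4, where the log2 fold change was 0.51 (adjusted p = 0.135).

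B4galt5, the other lactosylceramide synthase, did not pass the test after IRI. It had 129.9, 140.3, 104 and 176 CPM in iGKO IRI, 234, 229.9, 266 and 166 CPM in fl/fl IRI, 104, 109.5, 110.4 and 267 CPM in iGKO sham, and 178, 240.0, 178 and 158 CPM in fl/fl sham. iGKO sham 4 was the highest of all 16 libraries and the other iGKO sham libraries were at the low end. IRI against sham gave log2 fold changes of 0.25 ± 0.27 in fl/fl mice and -0.10 ± 0.27 in iGKO mice (SE, adjusted p = 0.585 and 0.993 in edgeR). Without iGKO sham 4 the iGKO value was 0.36, with no call.

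Gba2, the glucosylceramidase that works outside the lysosome, did not pass the test after IRI in either genotype. It ran from 9.95 to 16.8 CPM in iGKO IRI, 12.1 to 14.0 CPM in fl/fl IRI, 11.5 to 20.5 CPM in iGKO sham and 11.0 to 14.6 CPM in fl/fl sham. Its log2 fold change of IRI against sham was -0.09 ± 0.21 in fl/fl and 0.04 ± 0.21 in iGKO mice (SE, adjusted p = 0.818 and 0.997 in edgeR).

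On the galactosylceramide side, Ugt8a, the galactosyltransferase that makes galactosylceramide, had 69.0, 100.0, 65.9 and 120.1 CPM in iGKO IRI, 129.8, 61.9, 42.2 and 51.5 CPM in fl/fl IRI, 118, 122, 134 and 64.8 CPM in iGKO sham, and 154, 119.6, 109 and 105 CPM in fl/fl sham. In fl/fl IRI, libraries 2 to 4 lay below every fl/fl sham library and library 1 lay within the sham range. The log2 fold change in fl/fl mice was -0.77 ± 0.31 (SE, adjusted p = 0.106 in edgeR). Without fl/fl IRI 1, the library with the lowest injury sum of its group, it was -1.23 (adjusted p = 0.00313), and without both fl/fl IRI 1 and iGKO sham 4 it was -1.22 (adjusted p = 0.000723). In these settings 4335 of 18392 and 5508 of 18243 genes were called, against 2779 of 17972 with all libraries. The calls of Ugt8a thus came with a general rise in calls. In iGKO mice its log2 fold change was -0.31 ± 0.31 (adjusted p = 0.979).

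Gal3st1, the sulfotransferase that turns galactosylceramide into sulfatide, had 11.1, 18.3, 22.9 and 27.1 CPM in iGKO IRI, 20.9, 10.3, 13.1 and 12.5 CPM in fl/fl IRI, 13.1, 16.2, 21.5 and 32.0 CPM in iGKO sham, and 22.7, 21.5, 21.6 and 18.7 CPM in fl/fl sham. Again fl/fl IRI 2 to 4 lay below every fl/fl sham library, and fl/fl IRI 1 did not. Across the 4 fl/fl libraries of each operation its log2 fold change was -0.57 ± 0.29 (SE, adjusted p = 0.197 in edgeR), and -0.81 without both fl/fl IRI 1 and iGKO sham 4 (adjusted p = 0.0244). Without both, 5508 of 18243 genes were called, against 2779 of 17972 with all libraries. In iGKO mice the log2 fold change of Gal3st1 was -0.06 ± 0.29 (adjusted p = 0.997), and 0.24 without iGKO sham 4, with no call.

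Fa2h, which hydroxylates the fatty acid of sphingolipids such as galactosylceramide, was the least abundant. It had 1.19, 5.49, 5.50 and 5.20 CPM in iGKO IRI, 2.67 to 8.15 CPM in fl/fl IRI, 3.90 to 5.98 CPM in iGKO sham and 4.50 to 6.43 CPM in fl/fl sham. These rest on 16 to 129 reads a library. The log2 fold change was -0.18 ± 0.41 in fl/fl and -0.17 ± 0.41 in iGKO mice (SE, adjusted p = 0.805 and 0.993 in edgeR), so its values after IRI differed by less than their error.

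Galc, the lysosomal galactosylceramidase that undoes the step of Ugt8a, was lower in every fl/fl IRI library than in every fl/fl sham library. It had 101, 91.4, 82.7 and 90.0 CPM in iGKO IRI, 97.4, 116, 102 and 107 CPM in fl/fl IRI, 121, 120.4, 138 and 68.3 CPM in iGKO sham, and 138, 117, 122 and 123 CPM in fl/fl sham. The highest fl/fl IRI library and the lowest fl/fl sham library were close together. In edgeR its log2 fold change in fl/fl mice of -0.25 ± 0.17 did not pass the test (SE, adjusted p = 0.344). The exact two-sided permutation test over the 8 libraries gave 0.0286, the smallest it can give for 4 against 4, and 0.147 after adjustment over all genes. In iGKO mice the log2 fold change was -0.29 ± 0.17 (adjusted p = 0.875), with iGKO sham 4 below all iGKO IRI libraries. Groups that do not overlap were found for 2 of the 10 genes in fl/fl mice (Galc below and Cerk above), against 19.5% of all genes, and for 0 of 10 in iGKO mice, against 5% of all genes.

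Cerk, the ceramide kinase, rose after IRI in fl/fl mice. It had 43.7, 48.2, 32.2 and 27.1 CPM in iGKO IRI, 36.9, 40.2, 46.5 and 73.6 CPM in fl/fl IRI, 28.5, 29.6, 28.3 and 32.5 CPM in iGKO sham, and 26.6, 28.7, 27.0 and 29.8 CPM in fl/fl sham. Every fl/fl IRI library was above every fl/fl sham library, fl/fl IRI 1 included, while iGKO IRI 3 and 4 lay within or below the iGKO sham range. The log2 fold change was 0.81 ± 0.21 in fl/fl mice (SE, adjusted p = 0.0165 in edgeR) and 0.35 ± 0.21 in iGKO mice (adjusted p = 0.895). The exact two-sided permutation test gave 0.0286 for Cerk in fl/fl mice as well, and 0.147 after adjustment over all genes. For B4galt6 it gave 0.114 (adjusted 0.286) and for Ugcg 0.0857 (adjusted 0.248). In fl/fl mice it was 0.56 without fl/fl IRI 4 (adjusted p = 0.0511) and 0.79 without fl/fl sham 3 (adjusted p = 0.0503), both just short of a call.

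Cert1, the ceramide carrier, did not pass the test after IRI in either genotype. It had 108, 100.0, 88.9 and 90.1 CPM in iGKO IRI, 97.8, 103, 102 and 139.6 CPM in fl/fl IRI, 121, 104, 109.9 and 69.7 CPM in iGKO sham, and 118, 111, 101 and 106 CPM in fl/fl sham. The groups overlapped, with fl/fl IRI 4 high and iGKO sham 4 low. The log2 fold change was 0.02 ± 0.16 in fl/fl and -0.06 ± 0.16 in iGKO mice (SE, adjusted p = 0.952 and 0.993 in edgeR).

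**Figure D2:**
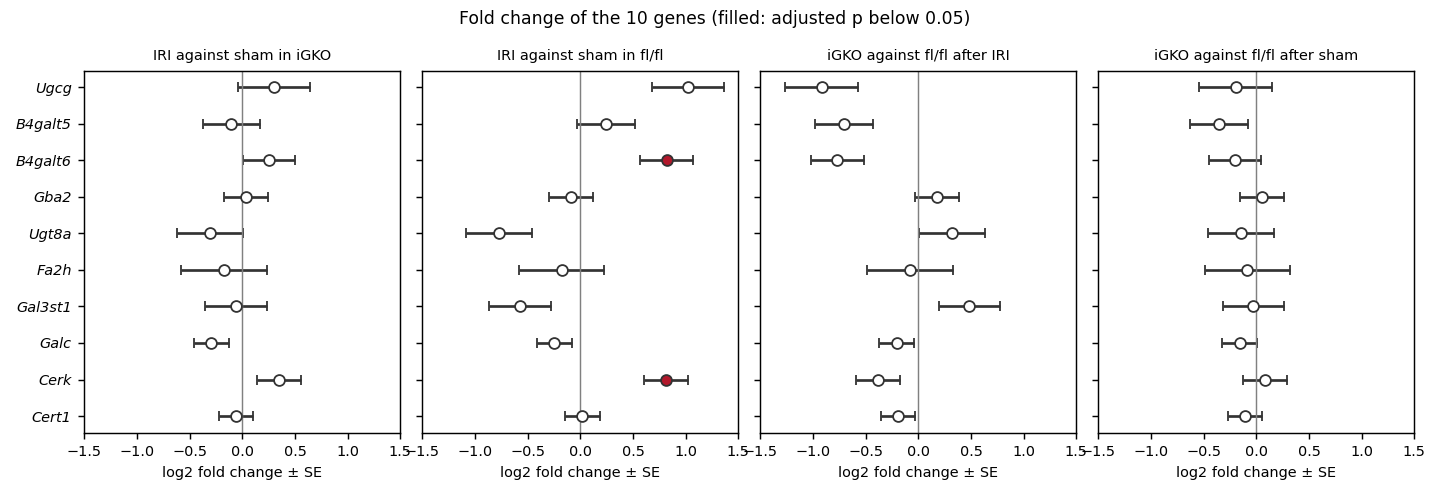
Log2 fold change ± SE of the 10 genes in the 4 comparisons of a pair of groups (edgeR, all 16 libraries), 1 row a gene and 1 panel a comparison; filled points have an adjusted p below 0.05. The filled points are B4galt6 (0.82) and Cerk (0.81) for IRI against sham in fl/fl mice, and Ugcg, B4galt5 and B4galt6 lie left of 0 for iGKO against fl/fl after IRI.

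In fl/fl mice, markers of injury and of several tubule segments moved with Ugt8a and Gal3st1. The libraries with the highest injury sums, fl/fl IRI 2, 3 and 4 at 10935, 14826 and 9135 CPM, were those with the lowest Ugt8a and Gal3st1 of the fl/fl mice. Their proximal tubule sums were 7684, 3584 and 6247 CPM, against 14563 CPM in fl/fl IRI 1. Havcr1, an injury marker of the proximal tubule, averaged 84.6 ± 40.8 CPM in iGKO IRI and 950.4 ± 691 CPM in fl/fl IRI, and 45.0 ± 53.8 CPM in iGKO sham and 11.9 ± 8.90 CPM in fl/fl sham (SD, n = 4 each). Thick ascending limb markers (5 of 5) summed to 1477 to 3315 CPM in iGKO IRI, 851 to 2180 CPM in fl/fl IRI, 2370 to 3103 CPM in iGKO sham and 2479 to 2910 CPM in fl/fl sham. Macrophage markers (5 of 5) summed to 123 to 232 CPM in iGKO IRI, 138 to 324 CPM in fl/fl IRI, 77.0 to 109 CPM in iGKO sham and 75.7 to 117 CPM in fl/fl sham, and neutrophil markers (5 of 5) to 9.66 to 31.3 CPM in iGKO IRI, 22.2 to 193 CPM in fl/fl IRI, 2.16 to 15.5 CPM in iGKO sham and 5.32 to 10.4 CPM in fl/fl sham. In fl/fl mice most of the rise of the macrophage sum was Cd14, which averaged 112 CPM after IRI and 8.16 CPM after sham. The other macrophage markers averaged, after IRI and after sham, 14.3 and 6.58 CPM for Cd68 and 20.4 and 15.6 CPM for C1qa. Adgre1 averaged 16.6 and 15.5 CPM, and Csf1r 47.8 and 50.9 CPM. Markers of the distal convoluted and connecting tubule (5 of 5) summed to 1344 to 1891 CPM in iGKO IRI, 972 to 2037 CPM in fl/fl IRI, 1630.3 to 2614 CPM in iGKO sham and 2051 to 3246 CPM in fl/fl sham. In fl/fl IRI they were at 2037 CPM in library 1 and at 1393, 972 and 1081 CPM in libraries 2 to 4, where Ugt8a and Gal3st1 were also low. In iGKO mice the pattern was mixed for Ugt8a. The lowest Ugt8a of iGKO sham (64.8 CPM) was in iGKO sham 4, with the highest distal sum (2614 CPM) and an injury sum of 1423 CPM. The lowest Ugt8a of iGKO IRI (65.9 CPM) was in iGKO IRI 3, with the lowest injury sum (1411 CPM). In iGKO IRI 1, Ugt8a was also low and the injury sum was the highest of the group (3139 CPM). Intercalated cell markers (5 of 5) summed to 125 to 141 CPM in iGKO IRI, 104 to 149.7 CPM in fl/fl IRI, 162 to 177 CPM in iGKO sham and 182 to 213 CPM in fl/fl sham. The part of these shifts in the values of the 10 genes was not tested. Ugt8a, Fa2h and Gal3st1 are best known from myelin-forming cells, and the Schwann cell marker Sox10 averaged at most 0.399 CPM in any group.

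**Figure D3:**
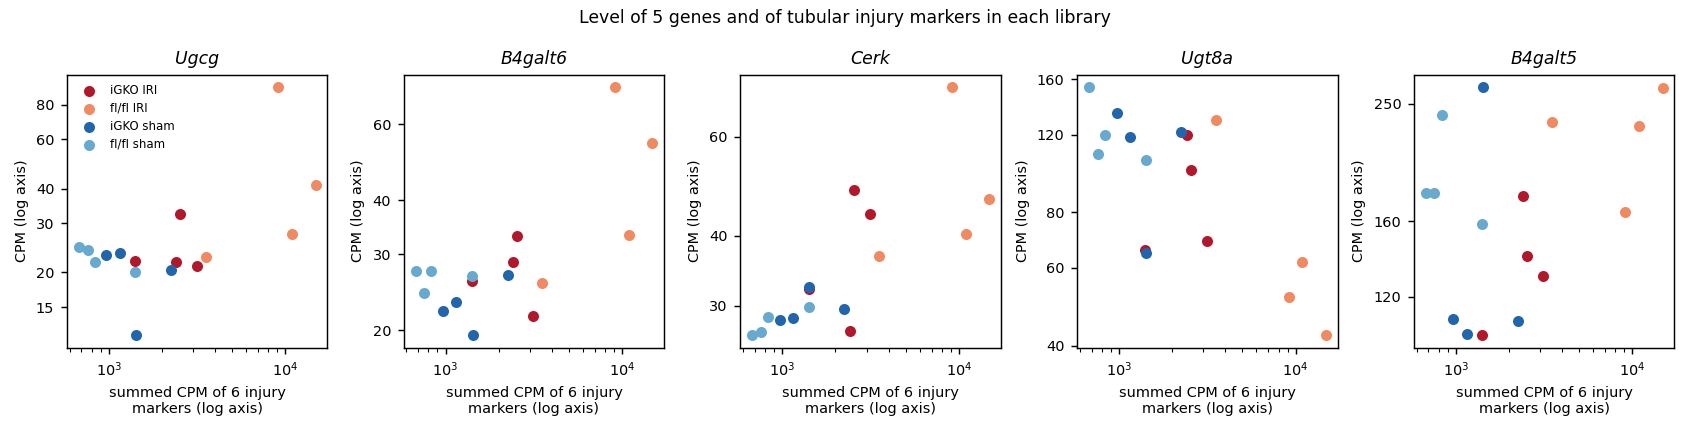
Level of Ugcg, B4galt6, Cerk, Ugt8a and B4galt5 in CPM (log axis) against the summed CPM of 6 tubular injury markers (log axis) in the 16 libraries, coloured by group. The 3 libraries furthest right are fl/fl IRI 2, 3 and 4 at 9135 to 14826 CPM of injury markers, with Ugt8a at 42.2 to 61.9 CPM and Ugcg at 27.6 to 92.5 CPM.

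Since Ugcg and Ugt8a act on the same substrate, their reads were set side by side in each library. This ratio was chosen after the values of both genes were seen, and it is given as a description with no test. Reads of Ugt8a per read of Ugcg were 3.26, 3.08, 3.01 and 5.50 in iGKO IRI, 5.70, 2.24, 1.03 and 0.557 in fl/fl IRI, 5.03, 5.95, 5.79 and 5.44 in iGKO sham, and 6.24, 5.49, 4.51 and 5.24 in fl/fl sham. The sham libraries of both genotypes lay between 4.51 and 6.24. In fl/fl IRI the ratio was within that range in library 1 and far below it in the other 3, and in iGKO IRI it was below it in libraries 1, 2 and 3. The mean was 3.71 ± 1.20 in iGKO IRI, 2.38 ± 2.32 in fl/fl IRI, 5.55 ± 0.410 in iGKO sham and 5.37 ± 0.715 in fl/fl sham (SD, n = 4 each).

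**Figure D4:**
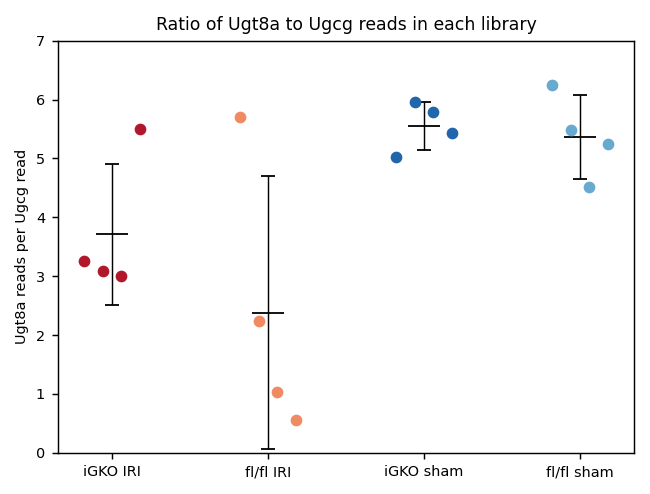
Reads of Ugt8a divided by reads of Ugcg in each of the 16 libraries, by group from left to right iGKO IRI, fl/fl IRI, iGKO sham and fl/fl sham; points are libraries and bars the group mean ± SD (n = 4). Sham libraries sit between 4.51 and 6.24, and fl/fl IRI runs from 0.557 to 5.70.

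The second question is how the genes differ between genotypes. After IRI, 0 of the 10 genes were called between iGKO and fl/fl mice, against 0.851% of all genes, and the groups of every gene overlapped, against 5.52% of all genes with groups that do not. Of all genes, 0.178% were called higher and 0.673% lower in iGKO mice. The comparison shares its fl/fl IRI libraries with the one of IRI against sham above, so it repeats part of the same values. Ugcg averaged 24.3 ± 5.41 CPM in iGKO IRI and 46.0 ± 32.0 CPM in fl/fl IRI (SD, n = 4 each), and its log2 fold change was -0.92 ± 0.34 (SE, adjusted p = 0.173 in edgeR). B4galt6 averaged 27.3 ± 4.82 CPM in iGKO IRI and 46.5 ± 21.4 CPM in fl/fl IRI, a log2 fold change of -0.77 ± 0.25 (adjusted p = 0.124). B4galt5 averaged 137 ± 29.9 CPM in iGKO IRI and 224 ± 41.9 CPM in fl/fl IRI, a log2 fold change of -0.70 ± 0.28 (adjusted p = 0.189). These were the 3 genes of the set furthest below 0, and none of them passed the test.

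Cerk averaged 37.8 ± 9.82 CPM in iGKO IRI and 49.3 ± 16.7 CPM in fl/fl IRI (log2 fold change -0.38 ± 0.21, adjusted p = 0.320 in edgeR). In the other direction stood Gal3st1 at 19.8 ± 6.87 CPM in iGKO IRI and 14.2 ± 4.61 CPM in fl/fl IRI (log2 fold change 0.49 ± 0.29, adjusted p = 0.376) and Ugt8a at 88.8 ± 25.9 CPM in iGKO IRI and 71.4 ± 39.8 CPM in fl/fl IRI (log2 fold change 0.32 ± 0.31, adjusted p = 0.605). The 4 remaining genes, Gba2, Fa2h, Galc and Cert1, had log2 fold changes from -0.21 to 0.18. The median of the 10 was -0.20, against -0.01 over all genes. Without fl/fl IRI 1, Ugcg was called at a log2 fold change of -1.14 (adjusted p = 0.0281) and B4galt6 at -0.97 (adjusted p = 0.00834). Of all genes, 2495 of 18392 were then called, against 153 of 17972 with all libraries. Without both fl/fl IRI 1 and iGKO sham 4, 5 genes were called: Ugcg (-1.13, adjusted p = 0.0154), B4galt6 (-0.96, adjusted p = 0.00592) and B4galt5 (-0.68, adjusted p = 0.0236) lower, and Ugt8a (0.78, adjusted p = 0.0175) and Gal3st1 (0.73, adjusted p = 0.0491) higher in iGKO mice. In that setting 3816 genes in all were called, against 153 with all libraries.

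After sham, 0 of the 10 genes were called and 0 had groups that do not overlap, against 0% and 1.93% of all genes, with 210 genes at an unadjusted p below 0.05 in edgeR and 0 called by DESeq2. Degs1, the deleted gene, was itself not called after sham, although its groups did not overlap. The comparison thus missed a known difference, and 0 calls do not show that the genotypes are alike. Of the 10 genes, B4galt5 had the widest difference, with a mean of 148 ± 79.4 CPM in iGKO sham and 189 ± 35.4 CPM in fl/fl sham (SD, n = 4 each) and a log2 fold change of -0.35 ± 0.27 (SE, adjusted p = 1.00 in edgeR). Without iGKO sham 4, at 267 CPM, it was -0.80, still with no call. The other 9 genes had log2 fold changes from -0.20 to 0.08. Averaged over both operations, 0 of 10 were called, against 0.00556% of all genes, which is Degs1 alone. B4galt5 was at -0.53 ± 0.19, B4galt6 at -0.49 ± 0.18 and Ugcg at -0.56 ± 0.24 (log2 fold change ± SE, adjusted p = 0.613, 0.613 and 0.628). Without both fl/fl IRI 1 and iGKO sham 4 B4galt5 was called in the averaged comparison, at -0.74 (adjusted p = 0.0153), and without fl/fl IRI 1 alone B4galt6 was called, at -0.59 (adjusted p = 0.0498). In that comparison 470 of 18243 genes were called without both and 405 of 18392 without fl/fl IRI 1, against 1 with all libraries.

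Whether the response to IRI differs between genotypes was tested by the interaction, the response in iGKO minus that in fl/fl mice. No gene of the 10 was called, nor was any of all 17972 genes (0%), with 2033 at an unadjusted p below 0.05 in edgeR and 112 called by DESeq2. The interaction log2 values furthest from 0 were those of Ugcg at -0.72 ± 0.48, B4galt6 at -0.56 ± 0.35, Gal3st1 at 0.51 ± 0.41, Cerk at -0.47 ± 0.29 and Ugt8a at 0.46 ± 0.44 (SE, adjusted p from 0.556 to 0.717). Without both fl/fl IRI 1 and iGKO sham 4 these were -1.11 for Ugcg, 1.05 for Gal3st1, -0.83 for B4galt6, 0.74 for Ugt8a and -0.53 for Cerk, and none of the 10 was called (adjusted p = 0.102, 0.0739, 0.0881, 0.114 and 0.256 in the same order). The calls of B4galt6 and Cerk in fl/fl and not in iGKO mice are thus not shown to differ between the genotypes.

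Other genes of glycolipid metabolism were set beside the 10, in 4 lists with 59 genes, of which 58 were matched and 54 passed the filter on low counts. After IRI in fl/fl mice, 4 of the 54 rose and 8 fell, against 8.46% and 7.01% of all genes. Of 16 genes of globo-series and ganglioside synthesis, B4galnt1 and Fut2 rose and B3galnt1 and B3galt5 fell. B4galnt1, which makes the complex gangliosides of the GM2 series, averaged 43.6 ± 10.6 CPM in fl/fl IRI and 12.4 ± 4.17 CPM in fl/fl sham (SD, n = 4 each), and its log2 fold change was 1.81 ± 0.27 (SE, adjusted p = 0.000971 in edgeR). B3galnt1, globoside synthase, averaged 3.70 ± 2.93 CPM in fl/fl IRI and 12.1 ± 3.04 CPM in fl/fl sham, a log2 fold change of -1.71 ± 0.39 (adjusted p = 0.00904). Fut2, a fucosyltransferase of blood-group structures, had 19, 25, 109 and 31 reads in fl/fl IRI and 0, 0, 2 and 2 reads in fl/fl sham (adjusted p = 0.00193). Fut2 had 2, 3, 0 and 9 reads in iGKO IRI. It was also the 1 gene of the 54 called between iGKO and fl/fl mice after IRI, against 0.851% of all genes. It was lower in iGKO (adjusted p = 0.0398 in edgeR). That call was lost in 15 of 23 alternatives, among them the replicate block and the compared groups fitted alone (highest adjusted p = 0.317), while its call in fl/fl mice was kept in all 23. Fut2 had at least 1.30 CPM in fl/fl IRI and at most 0.608 CPM in any library of the other groups. It thus passed the filter on low counts only through the group where it was high. Both calls of Fut2, which is counted among the 4 of the 54 that rose, are therefore partly set by the filter.

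Of 10 genes that supply activated sugar, sulfate and electrons, Papss1, Papss2 and Galt fell. Papss1 and Papss2 make PAPS, the sulfate donor that Gal3st1 uses. Papss1 averaged 53.9 ± 19.4 CPM in fl/fl IRI and 106 ± 5.49 CPM in fl/fl sham (log2 fold change -0.98 ± 0.21, SE, adjusted p = 0.00632 in edgeR). Papss2 averaged 146 ± 22.0 CPM in fl/fl IRI and 255 ± 40.5 CPM in fl/fl sham (log2 fold change -0.80 ± 0.18, adjusted p = 0.00809). Both are also used in all other sulfation. Neither overlapped between fl/fl IRI and fl/fl sham. In fl/fl IRI 1, the library within the sham range of Gal3st1, Papss1 was at 80.5 CPM and Papss2 at 173 CPM, the highest of the 4 fl/fl IRI libraries for both.

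Of 15 genes of glycolipid breakdown, Gla and Scarb2 rose and Glb1 and Gm2a fell. Gla, the lysosomal alpha-galactosidase that degrades globotriaosylceramide, averaged 12.8 ± 1.00 CPM in fl/fl IRI and 7.37 ± 1.00 CPM in fl/fl sham (log2 fold change 0.80 ± 0.17, SE, adjusted p = 0.00741 in edgeR). Of 13 genes of glycolipid and ceramide transfer, 0 rose and Ppm1l, a phosphatase that acts on Cert1, fell. After IRI in iGKO mice, 0 of the 54 were called, against 0% of all genes.

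**Figure D5:**
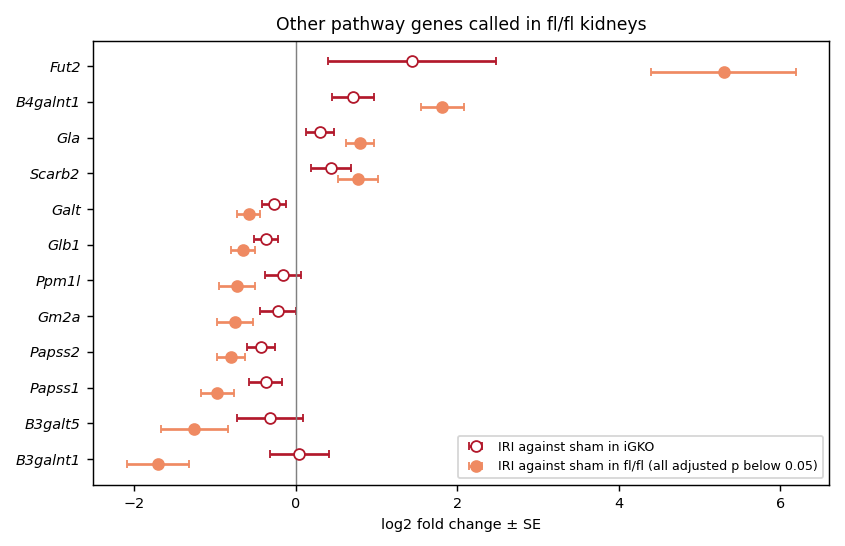
Log2 fold change ± SE of IRI against sham in iGKO mice and in fl/fl mice (edgeR) for the 12 other genes of glycolipid metabolism that were called in fl/fl mice, 1 row a gene; filled points have an adjusted p below 0.05. In fl/fl mice 4 genes lie right and 8 left of 0, and no point of iGKO mice is filled; the value of Fut2 rests on few reads.

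The genes whose pattern over the 16 libraries was most like that of the 2 called genes were found among 15659 genes with a symbol and a mean of at least 1 CPM. Likeness was the root mean square difference of z-scored log2 CPM, where small means alike. For B4galt6 they were Senp1 (0.283) and Tead1 (0.295). Senp1 averaged 39.3 ± 2.05 CPM in iGKO IRI, 45.1 ± 5.14 CPM in fl/fl IRI, 36.6 ± 1.62 CPM in iGKO sham and 38.9 ± 1.48 CPM in fl/fl sham (SD, n = 4 each). Z-scores leave out the size of a change, which was small for Senp1. Tead1 averaged 179 ± 9.73 CPM in iGKO IRI, 299 ± 104 CPM in fl/fl IRI, 165 ± 24.4 CPM in iGKO sham and 173 ± 9.89 CPM in fl/fl sham. For Cerk they were Shc1 (0.351) and Grb10 (0.357). Shc1 averaged 78.5 ± 8.42 CPM in iGKO IRI, 105 ± 32.9 CPM in fl/fl IRI, 71.6 ± 6.00 CPM in iGKO sham and 66.2 ± 2.95 CPM in fl/fl sham. As with the 2 genes themselves, the widest spread was in fl/fl IRI. The like genes were picked for their pattern over these same 16 libraries, so this follows from the choice.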

How the data were processed

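Kidney cortex RNA of 16 samples, 4 per group, was depleted of ribosomal RNA and made into stranded libraries, per the labels' protocols. The authors deposited raw counts, whole numbers of reads per gene, not normalized. The submitters' processing notes name STAR 2.7.9a, featureCounts 1.6.3, cutadapt 1.16, DESeq2 1.36.0, MultiQC, Picard, FastQC and the build GRCm39 (mm39). What each was used for, which annotation release was counted and whether strand was used are not given in the sources used here. Where overlapping genes share reads, their counts are uncertain.

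Symbols (52073 of 56980 identifiers) and exon lengths came from GENCODE on GRCm38 by Ensembl identifier, so gene coordinates are not given. Unnamed identifiers took 0.84% to 1.77% of the reads and stayed in the tests. Promoter windows came from RefSeq (GRCm38.p6).

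Genes were tested with edgeR 4.0.16 (R 4.3.3): filterByExpr by group, TMM scaling, one quasi-likelihood fit to all 16 libraries with a coefficient for each group, and 6 two-sided contrasts. P-values were adjusted by Benjamini-Hochberg over all genes, threshold 0.05. The SE is the size of the log2 fold change over the root of F. Log2 CPM used a prior count of 2. The fit was tested on simulated data. Exact permutation tests compared log2 CPM of 4 libraries with 4, and their p-values were adjusted over all genes and not, as first planned, over the 10 genes and pairs of groups. The 23 alternatives were no filter, DESeq2 1.42.0, other scalings and fits, a replicate block, and leaving out each library or a pair.

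The members and lists were chosen with earlier results of these data known. Named genes are the 10, Degs1, of the other lists the 6 with the smallest p among those called in a comparison, for each called gene the 2 most alike in pattern, and injury and cell type markers. Further called genes of the lists are named after their values were seen. Genes withheld from the text are not reported here, and 1 was left out of the lists and their counts.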

Additional observations from a re-analysis of the deposited data

Results flagged for a closer look

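Among the 40 sets of 4 libraries (10 genes in 4 groups), 6 held 1 library far from the other 3 of its group by Dixon's 95% critical value. Chance gives about 1 in 20 such sets. Ugcg was at 32.4 CPM in iGKO IRI 2, with the other iGKO IRI libraries at 21.2 to 21.9 CPM. iGKO IRI 2 also had fibroblast and mural markers at 4131 CPM, most of it Col1a1, against 621 to 1254 CPM in those libraries. The part of these markers in the value of Ugcg was not tested. Fa2h was at 1.19 CPM in iGKO IRI 1, against 5.20 to 5.50 CPM in the others of the group. B4galt5 was at 267 CPM and Gba2 at 20.5 CPM in iGKO sham 4, the library that also stood apart on the second principal component, against 104 to 110.4 CPM and 11.5 to 12.4 CPM in the other iGKO sham libraries. Cert1 was at 139.6 CPM in fl/fl IRI 4, against 97.8 to 103 CPM in the others. Gba2 was at 14.0 CPM in fl/fl IRI 3, against 12.1 to 12.3 CPM in the others.

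For Cerk, every iGKO IRI library lay below the fl/fl IRI mean of 49.3 CPM, a mean raised by fl/fl IRI 4 at 73.6 CPM, with the other 3 fl/fl IRI libraries at 36.9 to 46.5 CPM also below it, and every iGKO sham library lay above the fl/fl sham mean of 28.0 CPM. The interaction log2 value was -0.47 and was not called (adjusted p = 0.559 in edgeR).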

How the results depend on the processing

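Counts of called genes moved as follows. Between IRI and sham in fl/fl mice, 2779 genes and 2 of the 10 were called with all libraries. The compared groups fitted alone gave 1526 and 1, the replicate block 2495 and 1, leaving out 1 library 1452 to 4335 and 0 to 4, and leaving out fl/fl IRI 1 and iGKO sham 4 together 5508 and 5. Between IRI and sham in iGKO mice the count of 0 became 4 with no filter, 43 with DESeq2 and 0 to 1 with 1 library left out. Between iGKO and fl/fl mice after IRI, the count of 153 became 352 with no filter, 942 with DESeq2, 0 with the groups alone, 0 with the replicate block, 0 to 2495 with 1 library left out and 3816 with both left out, and that of the 10 became 0 to 2 and 5 in the last pair. For the interaction, 0 became 15 with no filter, 112 with DESeq2, 1 with the replicate block, 0 to 776 with 1 library left out and 1489 with both left out. For the averaged genotype difference, 1 became 22 with DESeq2, 0 with the block, 0 to 405 with 1 library left out and 470 with both left out, and that of the 10 became 0 to 1 and 1. After sham, leaving out 1 library gave 0 to 0. The cause of these shifts was not tested. The labels do not say whether the replicate numbers pair the samples. Same-numbered libraries deviated together with correlations from -0.335 to 0.399 (median 0.0152, 24 pairs). Libraries of unlike number had -0.377 to 0.346 (median -0.00435, 72 pairs). No pairing was seen in these values, which cannot exclude one. The block ended the fl/fl call of B4galt6 (log2 0.77, adjusted p = 0.0583 in edgeR), and the groups alone did too (0.83, adjusted p = 0.0936).

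None of the log2 fold changes that changed sign was called in any setting. With both libraries left out they were Fa2h at 0.016 for IRI against sham in fl/fl, Gal3st1 at 0.24 and B4galt5 at 0.36 in iGKO, Ugt8a at 0.037, Galc at 0.018, Cert1 at 0.032 and Gba2 at -0.19 for genotype after sham, Fa2h at -0.21 and B4galt5 at 0.13 for the interaction, and Gba2 at -0.0096 for the averaged difference. In iGKO mice, IRI against sham also moved for Gba2 to 0.30, Galc to -0.45, Ugt8a to -0.48, Cert1 to -0.19 and Ugcg to 0.14 with both left out, with no call. With the replicate block Fa2h changed sign, at -0.0059 for the interaction. With 1 library left out the ranges were, for IRI against sham in fl/fl, Cert1 -0.11 to 0.074 and Fa2h -0.61 to 0.0096. In iGKO they were B4galt5 -0.25 to 0.36, Cert1 -0.19 to 0.04, Fa2h -0.30 to 0.13, Gal3st1 -0.25 to 0.24 and Gba2 -0.051 to 0.30. For the interaction they were B4galt5 -0.49 to 0.11, Cert1 -0.21 to 0.050, Fa2h -0.18 to 0.44 and Galc -0.22 to 0.067. For genotype after IRI it was Fa2h at -0.27 to 0.36. For genotype after sham they were Cert1 -0.21 to 0.031, Fa2h -0.19 to 0.034, Gal3st1 -0.31 to 0.14, Galc -0.27 to 0.018, Gba2 -0.19 to 0.14 and Ugt8a -0.26 to 0.036. For the averaged difference they were Fa2h -0.17 to 0.14, Gba2 -0.0028 to 0.19 and Ugt8a -0.0089 to 0.31. Of 960 values with 1 library left out, 901 kept direction and call, and of 400 under the other settings 376 did. The 16 to 129 reads of Fa2h limit its precision, and intervals from reads cover counting error only.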
